A study of Homo sapiens with 3 samples.

Results

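The 10 genes described here lie on distal 1p, the end of the short arm of chromosome 1, and each has been put forward as a suppressor of neuroblastoma or of other tumours. They are CHD5, CAMTA1, KIF1B, CASZ1, MIIP, RUNX3, TNFRSF25, ERRFI1, TP73 and UBE4B. They were taken as a list of names, drawn up with earlier results of these data known, and all of the probe sets that name each gene alone were used, which gave 36 probe sets for the 10 genes out of 54675 probe sets on the array and 19735 measured genes. RNA was measured in 3 samples with 1 Affymetrix U133 Plus 2.0 array each. IMR-32 and NGP are established neuroblastoma cell lines, untreated and in regular growth medium, IMR-32 in Minimum Essential Medium and NGP in RPMI, so that the line and its medium cannot be told apart. Both carry amplified MYCN in the study. The reference is untreated RNA from a pool of 16 different cancer cell lines, whose names are not given in the sources used here. In the copy number data of the study, which were not analysed here, IMR-32 has a loss of 1p that reaches from the p-telomere to about DMRTA2 and covers all 10 genes. No loss of 1p is named for NGP.

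Loss of distal 1p is among the most frequent genetic changes of neuroblastoma, and it often occurs together with amplification of MYCN. Since the lost stretch is usually long and the remaining copy is rarely mutated, genes have been sought there whose lower dose or silencing, often through promoter methylation, would release growth or block the maturing of sympathetic neuroblasts. The candidates act at different points. KIF1B is a kinesin that carries mitochondria and synaptic vesicle precursors along axons and can trigger death of sympathetic precursors. UBE4B is a U-box ubiquitin ligase that extends ubiquitin chains. CAMTA1 is a calmodulin-binding transcription activator of neurons, CASZ1 and RUNX3 are transcription factors of neuronal and sensory differentiation, and CHD5 is a neuronal chromatin remodeller of the NuRD type. TNFRSF25 (DR3) is a death receptor, TP73 is a transcription factor of cell death and neuronal survival, MIIP inhibits cell migration and binds IGFBP2, and ERRFI1 (MIG6) is a feedback inhibitor of the EGF receptor.

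Sequences are shown for the 4 genes that stood higher in NGP than in IMR-32 with signals mostly above the array median, KIF1B, UBE4B, CAMTA1 and MIIP, and for ERRFI1, which stood far below the pool in both lines. The genes to show were picked after their values were seen. Each is the promoter window of 300 bases from RefSeq (GRCh38.p14), written 5′ to 3′ on the gene's own strand, with 250 bases before the transcript start and 50 bases from it on. For KIF1B and CAMTA1, which have several annotated starts, it is the window of the start that lies nearest to the p-telomere. Capitals mark the letters CACGTG, the E-box bound by MYC family proteins, and CCAAT or its reverse complement ATTGG, the box bound by NF-Y.
KIF1B (chr1:10210320-10210619, plus strand): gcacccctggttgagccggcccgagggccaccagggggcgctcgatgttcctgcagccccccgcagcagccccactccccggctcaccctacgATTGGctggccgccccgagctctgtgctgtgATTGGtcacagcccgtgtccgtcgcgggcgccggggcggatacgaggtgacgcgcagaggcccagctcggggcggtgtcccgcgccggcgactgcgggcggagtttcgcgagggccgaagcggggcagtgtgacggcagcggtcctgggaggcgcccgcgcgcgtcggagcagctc
UBE4B (chr1:10032708-10033007, plus strand): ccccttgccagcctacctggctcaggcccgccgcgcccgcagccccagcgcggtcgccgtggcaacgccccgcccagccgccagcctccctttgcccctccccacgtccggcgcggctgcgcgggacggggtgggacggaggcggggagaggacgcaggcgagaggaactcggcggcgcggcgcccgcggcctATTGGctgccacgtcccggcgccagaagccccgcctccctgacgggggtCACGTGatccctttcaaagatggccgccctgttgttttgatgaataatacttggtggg
CAMTA1 (chr1:6785204-6785503, plus strand): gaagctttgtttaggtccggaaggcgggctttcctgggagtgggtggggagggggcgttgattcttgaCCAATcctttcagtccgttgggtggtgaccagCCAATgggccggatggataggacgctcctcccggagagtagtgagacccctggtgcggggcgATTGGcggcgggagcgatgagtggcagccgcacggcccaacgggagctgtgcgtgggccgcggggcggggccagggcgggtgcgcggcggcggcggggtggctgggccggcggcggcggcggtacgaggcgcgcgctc
MIIP (chr1:12019248-12019547, plus strand): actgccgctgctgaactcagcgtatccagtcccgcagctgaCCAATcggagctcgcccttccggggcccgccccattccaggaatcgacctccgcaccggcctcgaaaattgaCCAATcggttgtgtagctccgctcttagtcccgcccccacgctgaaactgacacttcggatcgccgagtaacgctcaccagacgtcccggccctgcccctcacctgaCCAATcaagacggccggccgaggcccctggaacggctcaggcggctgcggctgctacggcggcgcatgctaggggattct
ERRFI1 (chr1:8026260-8026559, minus strand): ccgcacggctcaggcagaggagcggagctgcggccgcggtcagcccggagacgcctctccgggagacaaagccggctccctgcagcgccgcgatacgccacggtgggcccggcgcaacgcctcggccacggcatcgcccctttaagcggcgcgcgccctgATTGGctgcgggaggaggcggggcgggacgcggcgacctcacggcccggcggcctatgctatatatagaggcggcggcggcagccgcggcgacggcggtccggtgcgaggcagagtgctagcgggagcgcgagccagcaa

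All 5 windows hold CCAAT or ATTGG, with 3 matches in CAMTA1 and MIIP, 2 in KIF1B and 1 each in UBE4B and ERRFI1. Of all 35116 RefSeq promoter windows of this length, 34.6% hold this motif on either strand. UBE4B alone of the 5 holds CACGTG, which reads the same on both strands and begins at base 243 of its window, just before the transcript start at base 251. CACGTG is in 7.26% of all windows. The 5 windows hold between 30 and 47 CG dinucleotides, the sites of DNA methylation, where the median window holds 14 and the upper quartile is 28. For CAMTA1 and KIF1B these counts depend on the window shown. The other CAMTA1 windows hold 6, 7 and 11 CG with no CCAAT or ATTGG, and 49 CG with 2 matches. Those of KIF1B hold 51 CG with no match and 7 CG with 1 match. Promoter windows were found for 8 of the 10 genes, 17 in all, of which 2 hold CACGTG and 10 hold CCAAT or ATTGG. The 2 genes without an entry are CHD5 and CASZ1. A match of letters is no evidence of binding, and neither binding nor methylation was measured.

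The values are MAS5 signals, a brightness in arbitrary units on a linear scale with a trimmed mean of 500 in each array. The median signal was 89.9 in IMR-32, 98.8 in NGP and 119 in the pool, and a probe set is called dim here where its signal is below the median of its array. Expression ratios are log2 ratios of the signals, so that 1 is a doubling, and each gene takes the median of its probe sets. Genes were called high or low where they fell among the highest or lowest 7% of genes in a comparison, at 1.68 and -2.83 for IMR-32 over the pool, at 1.84 and -2.88 for NGP over the pool and at 1.95 and -1.84 for NGP over IMR-32. The percentage called is therefore 7 at each end. Over all genes the median ratio lay at -0.23 for IMR-32 and -0.22 for NGP, and ratios over the pool have to be read against this shift. Probe sets of the same gene differed with a standard deviation of 1.31, 1.41 and 1.28 in the 3 comparisons. With 1 array per sample there is no replicate error and no test, and every difference below is one between single arrays. Of the 36 probe sets, 14 were at or above the median in all 3 arrays, 14 in some of them and 8 in none, as the plot of signals by probe set shows.

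**Figure D1:**
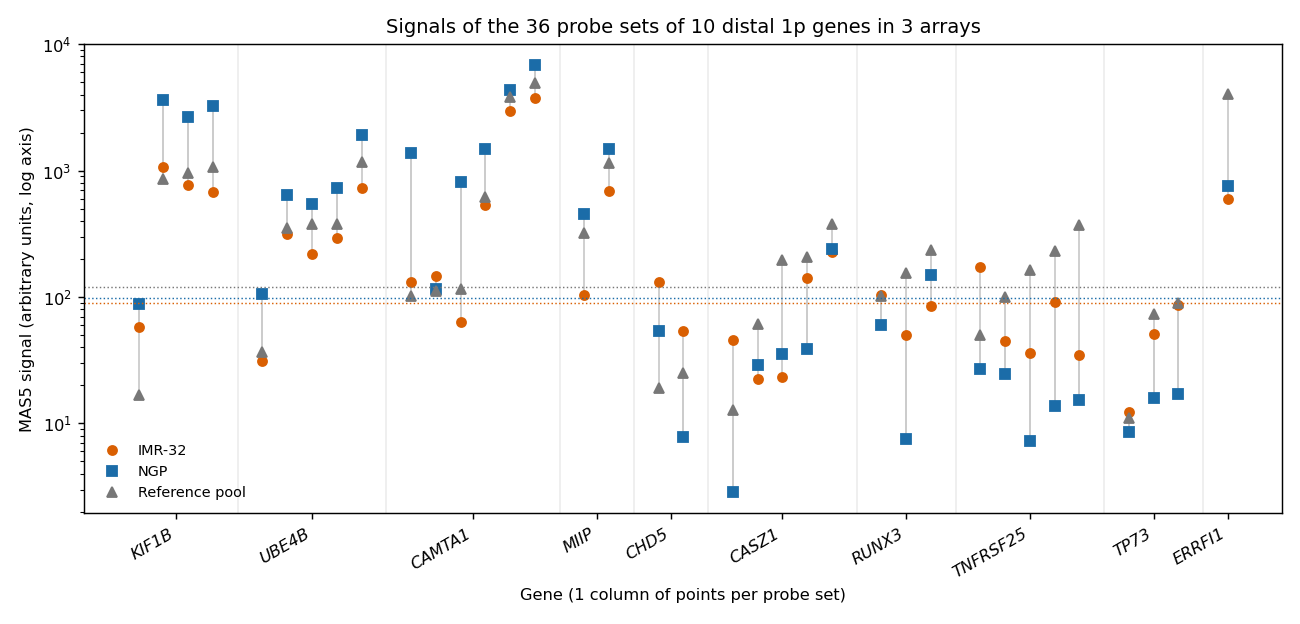
MAS5 signal (y-axis, arbitrary units, log axis) of each of the 36 probe sets of the 10 genes (x-axis, 1 column of points per probe set, ordered by pool signal within a gene) in IMR-32 (circles), NGP (squares) and the reference pool (triangles), with the median of each array as a dotted line. KIF1B, UBE4B, CAMTA1 and MIIP lie mostly above the medians with NGP on top, CHD5 and TP73 lie near or below them, and ERRFI1 is at 4029.6 in the pool against 592 in IMR-32 and 750.1 in NGP.

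In IMR-32, 9 of the 10 genes were below the pool and 1 above it, where 58.4% and 41.6% of all genes were. Among the 9, TP73 (-0.06) and KIF1B (-0.01) were level with the pool. With median-centred ratios these 2 were above 0, at 0.17 and 0.23, so that fewer than 9 were below. Of the 632 measured genes of distal 1p, 81.2% were below. The median of the 10 was -0.56, above the -0.81 of distal 1p. None was within the bottom 7% and 1, CHD5, was within the top 7%. In NGP 6 of the 10 were below the pool and 4 above it, where 42.3% of all genes were above, with a median of -0.43, and TNFRSF25 alone was low. Set directly against IMR-32, 6 of the 10 genes were higher in NGP and 4 were lower, where 50.8% of all genes were higher, 49.2% were lower, and 70.7% of the genes of distal 1p were higher. The median of the 10 was 0.22 in that comparison, but -0.28 with the mean over probe sets as the value of a gene, so the direction of the group as a whole is not settled. The group was thus mixed. KIF1B, UBE4B, CAMTA1 and MIIP were below the pool in IMR-32, KIF1B by 0.01 only, and above it in NGP, a pattern of 13.6% of all genes and of 150 of the 632 genes of distal 1p (23.7%). CHD5, TNFRSF25, TP73 and RUNX3 were lower in NGP than in IMR-32, and ERRFI1 (0.34) and CASZ1 (0.09) were nearest to 0. The direction of RUNX3 and of CASZ1 in this comparison turned under 2 alternatives each.

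**Figure D2:**
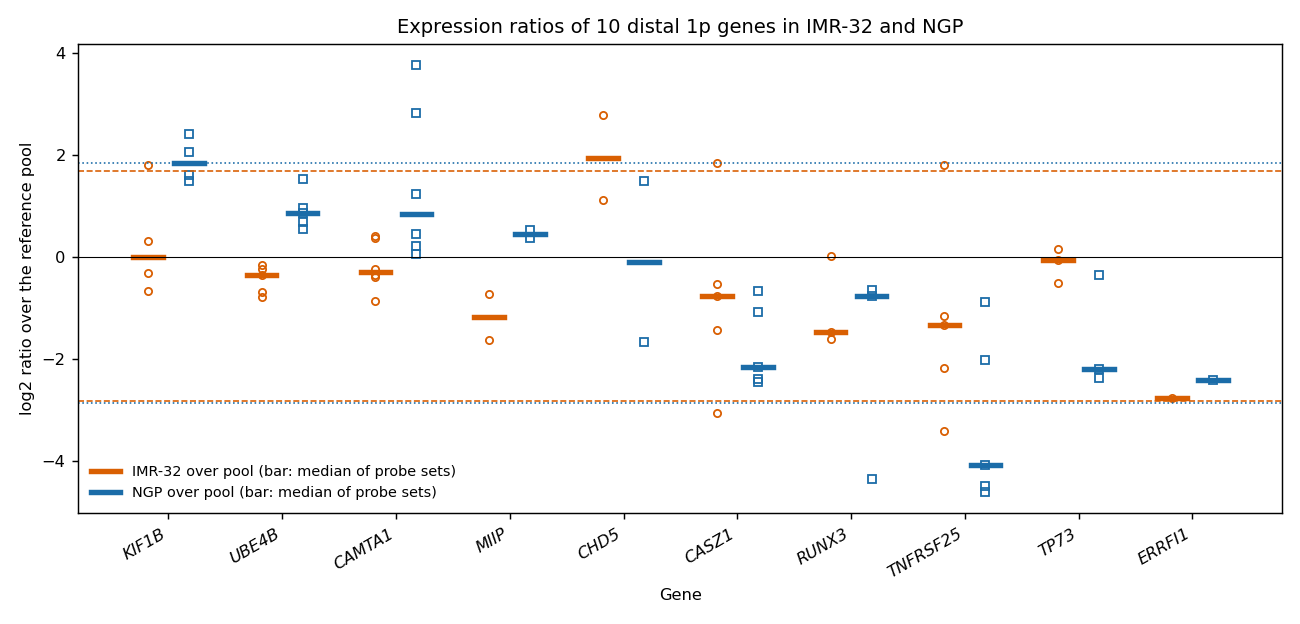
Log2 ratios to the pool on the y-axis for the probe sets of each gene (open symbols) in IMR-32 (circles) and NGP (squares), with the gene value as a bar and the top and bottom 7% cut-offs of IMR-32 (dashed) and NGP (dotted). CHD5 in IMR-32 (1.94) and TNFRSF25 in NGP (-4.09) lie beyond the cut-offs, and KIF1B in NGP (1.83) and ERRFI1 in IMR-32 (-2.77) lie just inside them.

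KIF1B, the kinesin gene, was expressed in both lines, and its level was higher in NGP. In probe set 209234_at the signal was 1069.8 in IMR-32, 3592 in NGP and 860.0 in the pool. In 226968_at it was 766 in IMR-32, 2676 in NGP and 959 in the pool. In 225878_at it was 675 in IMR-32, 3241 in NGP and 1069.8 in the pool. In these 3 probe sets, all above the array medians, NGP was the highest sample. IMR-32 over the pool differed in direction between them, at 0.31 in 209234_at, -0.33 in 226968_at and -0.66 in 225878_at. The remaining probe set, 228657_at, was dim in all 3 arrays (57.7, 88.3 and 16.6). The log2 ratio of the gene was 1.78 for NGP over IMR-32 (3.43-fold), and all of its probe sets lay above 0, from 0.61 to 2.26. Over the pool it was 1.83 in NGP (3.56-fold), just below the cut-off of 1.84, and KIF1B was counted as high there under 4 of 10 alternatives (the mean over probe sets, 32 added, the top 10% and the brightest probe set) and in NGP over IMR-32 under 3 of 10. The ratio was -0.01 in IMR-32, level with the pool, a value that is above 0 with median-centred ratios (0.23), with the mean over probe sets (0.28) and with the brightest probe set alone (0.31).

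UBE4B, the ubiquitin ligase gene next to KIF1B in gene order, was higher in NGP in each of its 5 probe sets. The brightest, 202317_s_at, had signals of 728 in IMR-32, 1904 in NGP and 1180 in the pool. In 202316_x_at they were 294, 734 and 376, in the same order of samples. In 210685_s_at they were 217, 548 and 375, and in 215533_s_at 316, 637 and 352. IMR-32 was the lowest sample and NGP the highest in all of these, and also in 226746_s_at, which was dim in IMR-32 and in the pool (31.3, 106 and 37.0). The log2 ratio of NGP over IMR-32 was 1.34 (2.52-fold), with a narrow range of 1.01 to 1.76 between probe sets. Over the pool UBE4B was at 0.86 in NGP and at -0.35 in IMR-32. All 5 probe sets end in _s_at or _x_at, which marks sequence shared with other transcripts.

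CAMTA1, the transcription activator gene, was also higher in NGP, by an amount that differed between probe sets. The brightest probe set, 225693_s_at, had signals of 3751 in IMR-32, 6807 in NGP and 4968 in the pool. Probe set 225692_at had signals of 2948, 4379 and 3789, in the same order. In these the difference of NGP over IMR-32 was 0.86 and 0.57 on the log2 scale. It was larger in 227328_at (531, 1472 and 624) and largest in 1555370_a_at (130, 1368 and 101) and 213268_at (63.8, 817 and 116), at 3.39 and 3.68. The level in the last 2 was near the array median in IMR-32 and in the pool and far above it in NGP, so that the probe sets of this gene do not follow each other. In 241882_at the order was the other way (147, 115 and 111), with a log2 ratio of -0.35. The gene value was 1.17 for NGP over IMR-32 (2.24-fold), 0.85 for NGP over the pool and -0.30 for IMR-32 over the pool. CAMTA1 has 5 promoter windows in RefSeq, and which transcripts each probe set reads was not analysed here.

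MIIP, the inhibitor of migration, was lowest in IMR-32 and highest in NGP in both of its probe sets. The signals of 48659_at were 692 in IMR-32, 1492 in NGP and 1150 in the pool. Those of 218551_at were 104, 458 and 319. The log2 ratio of NGP over IMR-32 was 1.63 (3.09-fold), the mean of 1.11 and 2.14. In IMR-32 the gene was 2.26-fold below the pool (-1.18) and in NGP 1.36-fold above it (0.45). MIIP and UBE4B were the members in which every probe set was below the pool in IMR-32 and above it in NGP, 2 of 10 against 7.63% of all genes and 12.5% of the genes of distal 1p. In IMR-32 the UBE4B probe set 215533_s_at was only at -0.16, above the median of -0.23 over all genes.

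CHD5, the chromatin remodeller gene, was the only one of the 10 above the pool in IMR-32. In 213965_s_at the signal was 132 in IMR-32, 53.6 in NGP and 19.2 in the pool. In 217250_s_at it was 53.7 in IMR-32, 7.82 in NGP and 24.9 in the pool. Both were highest in IMR-32, but only the first was above an array median, and only there. IMR-32 exceeded the pool 3.85-fold (log2 ratio 1.94, past the cut-off of 1.68), while NGP stood at -0.09, the mean of 1.48 and -1.67, so no direction is read from the NGP value. NGP was 4.11-fold below IMR-32 (-2.04), within the bottom 7%. The high call in IMR-32 held under 7 of 9 alternatives and the low call of NGP over IMR-32 under 4 of 9. With 32 added to the signals, which damps dim probe sets, that difference was -1.02, short of the cut-off.

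CASZ1, a zinc finger factor of neuronal differentiation, was below the pool in both lines. Its brightest probe set, 220015_at, had signals of 225 in IMR-32, 240 in NGP and 381 in the pool. In 235605_at they were 141, 39.1 and 206, and in 243386_at 23.2, 35.6 and 195. The pool was the highest sample in these and in the dim probe set 230420_at (22.4, 28.8 and 60.9), while 233863_at, also dim, was highest in IMR-32 (45.9, 2.86 and 12.9). The gene value was -0.76 in IMR-32 and -2.17 in NGP, yet NGP over IMR-32 was 0.09. These do not add up because each is a median over probe sets that ranged from -4.0 to 0.62 for NGP over IMR-32. NGP over IMR-32 was 0.09 in the brightest probe set, but -0.88 with dim probe sets left out and -0.96 with the mean over probe sets, so its direction is not settled. The NGP ratio to the pool was -0.61 with 32 added to the signals and -0.67 in the brightest probe set.

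RUNX3, the runt-domain factor, was dim in most of its measurements. Its signals were 84.7 in IMR-32, 149 in NGP and 234 in the pool in 204197_s_at. They were 50.2, 7.48 and 154 in 204198_s_at, and 104, 60.4 and 103 in 234928_x_at. The pool was highest in the first and second and level with IMR-32 in the last. The log2 ratio was -1.47 in IMR-32 and -0.76 in NGP, and -0.79 for NGP over IMR-32. Neither NGP value is firm. The ratio to the pool was -2.51 with dim probe sets left out and -1.93 with the mean over probe sets, and NGP over IMR-32 ran from -2.75 to 0.81 between probe sets, with 0.81 in the brightest and 0.01 with dim probe sets left out.

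TNFRSF25, the death receptor gene, was dim in NGP and lower there than in IMR-32. In 219423_x_at the signal was 91.5 in IMR-32, 13.6 in NGP and 233 in the pool. In the same order of samples it was 36.1, 7.32 and 164 in 210847_x_at, 34.9, 15.2 and 373 in 211282_x_at and 45.2, 24.8 and 101 in 211841_s_at. In 216042_at it was 173, 27.1 and 49.9. NGP was below IMR-32 in all 5 and below its array median in all 5. The gene was 17.1-fold below the pool in NGP (-4.09), within the bottom 7%, and 2.54-fold below it in IMR-32 (-1.35), with a difference of -2.30 between the lines. These ratios divide small signals, and their size is uncertain. The 4 probe sets that end in _s_at or _x_at were below the pool in IMR-32, while the remaining one, 216042_at, was above it (173 against 49.9), so that without the former the IMR-32 ratio is 1.79 and the NGP ratio -0.88. In bulk RNA, fewer cells that express a gene and less RNA per cell cannot be told apart.

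TP73, the transcription factor of cell death and neuronal survival, was below the median in all 3 probe sets and all 3 arrays. The signals were 51.1 in IMR-32, 15.8 in NGP and 72.9 in the pool in 1554379_a_at. They were 85.9, 17.1 and 89.3 in 232546_at, and 12.3, 8.61 and 11.1 in 220804_s_at. NGP was the lowest sample in each. IMR-32 was near the pool in 232546_at (-0.06) and 220804_s_at (0.15) and below it in 1554379_a_at (-0.51). The log2 ratios were -0.06 in IMR-32 and -2.20 in NGP, and -1.69 for NGP over IMR-32, none of which reached a cut-off. The IMR-32 ratio is above 0 with median-centred ratios (0.17) and quantile-normalized arrays (0.36).

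ERRFI1, the inhibitor of the EGF receptor, was the member with the lowest ratio in IMR-32, and it was almost as low in NGP. Its single probe set, 224657_at, had signals of 592 in IMR-32, 750.1 in NGP and 4029.6 in the pool, all above the array medians. It was 6.81-fold below the pool in IMR-32 (-2.77) and 5.37-fold below it in NGP (-2.43). Both were short of the bottom 7%, at -2.83 and -2.88. Among the genes of distal 1p, 56 of 632 were lower in IMR-32. The lines differed by 0.34, and the median of the 20 neighbouring genes was 0.98. The gene was counted as low in IMR-32 with quantile-normalized arrays, with 32 added to the signals and with the bottom 10%.

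The stretch of chromosome 1 around the 10 genes was lower in IMR-32. Over the 632 measured genes of distal 1p the median log2 ratio of NGP over IMR-32 was 0.52, and 447 were higher in NGP. Over the 407 genes of proximal 1p, from the gene after DMRTA2 to NOTCH2, it was -0.38, and 150 were higher in NGP. Over the 856 genes of 1q, from BCL9 on, it was 0.06. The medians thus lay on opposite sides of 0 before and after the end of the stretch lost in the study. Over the pool, the median in IMR-32 was -0.81 in distal 1p, 0.08 in proximal 1p and -0.10 in 1q, and in NGP it was -0.34, -0.09 and -0.14. Of the distal 1p genes with several probe sets, 143 of 345 (41.4%) had every probe set higher in NGP, as had 3 of the 9 such members, KIF1B, UBE4B and MIIP, against 22.8% of all such genes.

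**Figure D3:**
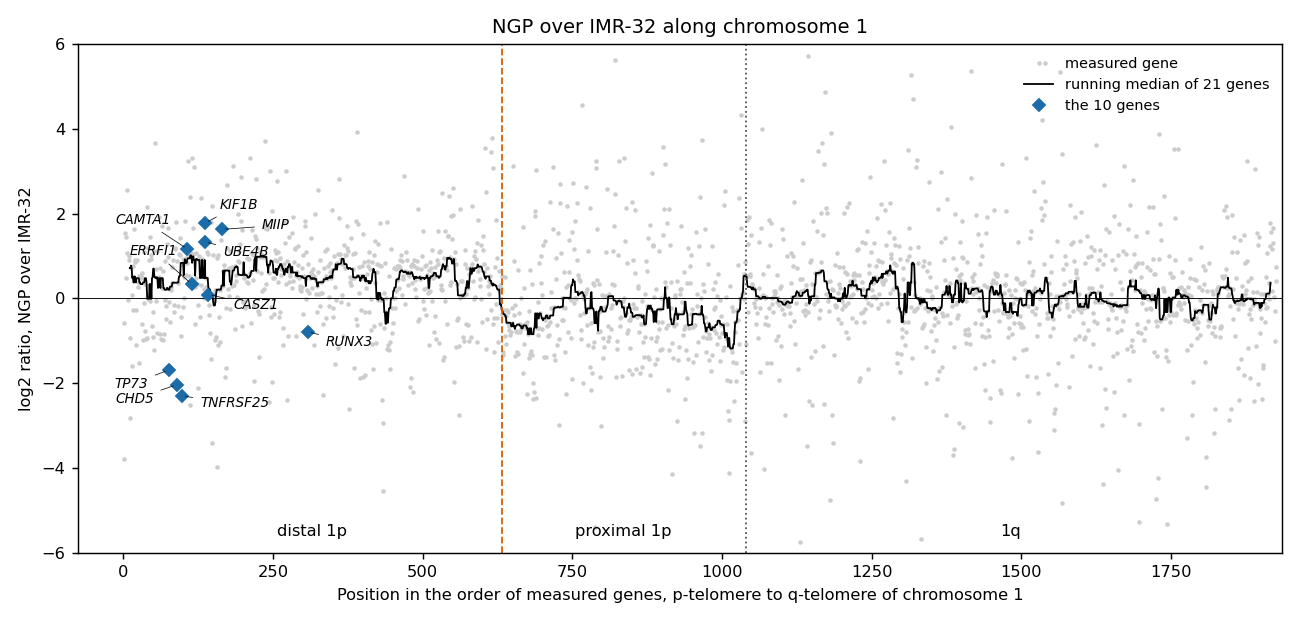
Log2 ratio of NGP over IMR-32 (y-axis) of the 1926 measured genes of chromosome 1 in gene order (x-axis), with the running median of 21 genes as a line, the 10 genes as diamonds, and DMRTA2 (dashed) and NOTCH2 (dotted) as vertical lines. The median line lies mostly above 0 in distal 1p and mostly below 0 in proximal 1p, and 4 of the 10 genes lie below 0. 3 genes lie outside the axis.

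Each of the 10 genes was set beside its 20 nearest measured genes, 10 on each side. In IMR-32 the medians of these neighbours over the pool lay between -1.0 around TP73 and -0.23 around MIIP, all below 0. For NGP over IMR-32 they lay between 0.24 around TP73 and 0.98 around ERRFI1, all above 0. The neighbourhoods overlap, so these medians are not independent. KIF1B (1.78 against 0.39), MIIP (1.63 against 0.26), UBE4B (1.34 against 0.69) and CAMTA1 (1.17 against 0.88) exceeded their neighbours. TNFRSF25 (-2.30 against 0.85), CHD5 (-2.04 against 0.37), TP73 (-1.69 against 0.24) and RUNX3 (-0.79 against 0.55) fell on the other side of 0. In IMR-32 KIF1B (-0.01), UBE4B (-0.35) and CAMTA1 (-0.30) were less far below the pool than their neighbours (-0.80, -0.84 and -0.92), and MIIP (-1.18) was further below than its own.

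**Figure D4:**
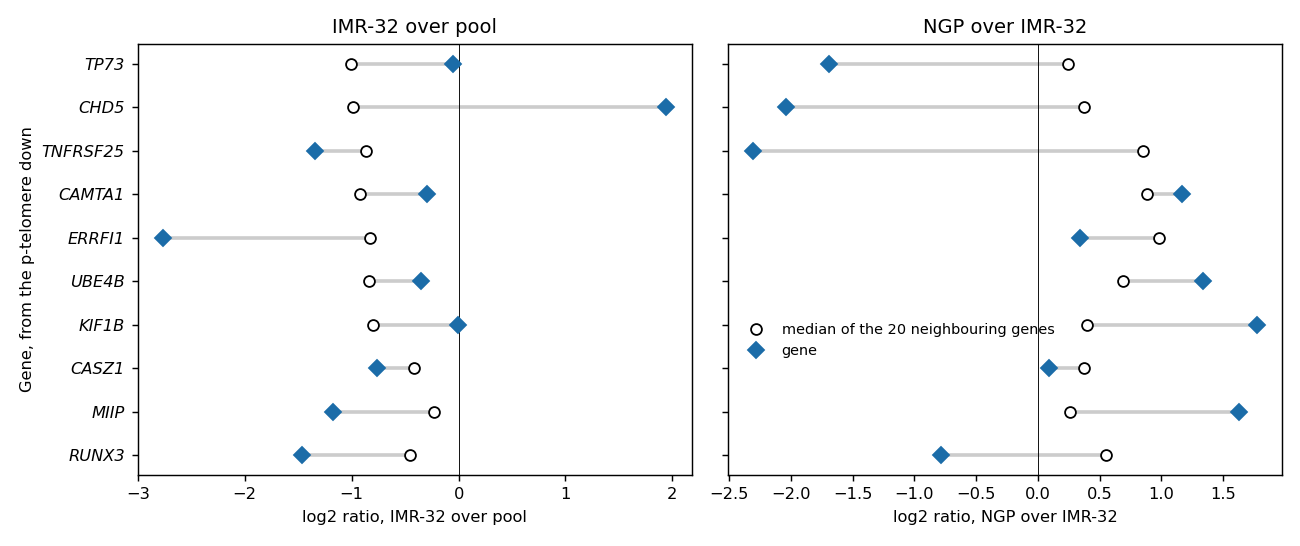
Log2 ratio (x-axis) of each of the 10 genes (diamonds) and the median of its 20 neighbouring measured genes (open circles), for IMR-32 over the pool (left) and NGP over IMR-32 (right), with genes in their order from the p-telomere (y-axis). All neighbour medians are below 0 on the left and above 0 on the right, whereas TP73, CHD5, TNFRSF25 and RUNX3 lie below 0 on the right.

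The genes directly beside the 10 showed where single genes departed. MFN2, the mitofusin gene before MIIP, was at -0.79 in IMR-32 and 0.59 in NGP, and WRAP73, before TP73, at -1.26 and 0.09. PARK7, a protein of the oxidative stress response before ERRFI1, was at -1.13 and -0.07, with signals of 12988 in IMR-32, 27101 in NGP and 28407 in the pool. RPL22, a ribosomal protein gene after CHD5, was at -0.77 and 0.10, with median signals of 23486, 42253 and 40045. These neighbours were lower in IMR-32 than in NGP and level with or above the pool in NGP, as the 4 members named first were. SLC45A1, after ERRFI1, and LOC105376689, after CAMTA1, were within the bottom 7% in IMR-32 (-3.18 and -3.20) and near 0 in NGP (0.12 and 0.04), from IMR-32 signals of 9.95 and 11.1. RBP7, a retinol-binding protein gene before UBE4B, was low in both lines (-3.86 and -3.64), and ESPN, before TNFRSF25, was low in NGP (-3.03). KCNAB2, before CHD5, was at -2.74 in IMR-32 and -0.93 in NGP, and PEX14, before CASZ1, at -1.61 and -0.56. DNAJC11 was at -0.88 and -0.04, PGD at -0.49 and 0.62, CLIC4 at -0.15 and 0.22 and SYF2 at -0.86 and -0.06. Other genes beside the 10 went the other way. CIROZ (0.30), TNFRSF8 (0.23) and GFOD3P (0.17) were above the pool in IMR-32. For NGP over IMR-32, ESPN (-0.45), CIROZ (-0.38), PLEKHG5 (-0.20) and GFOD3P (-0.09) were below 0.

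Of 26 other genes of distal 1p that have been proposed as suppressors or growth regulators, 21 were measured. Of these, 3 were low and 1 was high in IMR-32, with a median of -0.77, and 18 of 21 were higher in NGP than in IMR-32, with a median of 0.87. Over all measured genes of distal 1p, 8.54% were low and 2.85% high in IMR-32, with a median of -0.81. In NGP 70.7% of them were higher than in IMR-32, with a median of 0.52. Of all genes 7% were called at each end and 50.8% were higher in NGP. NBL1 (DAN), an antagonist of BMP signalling, was at -5.83 in IMR-32 and -2.12 in NGP, from signals of 15.3, 201 and 871 in IMR-32, NGP and the pool. EPHA2, an ephrin receptor, was at -5.22 and -2.35 (18.0, 132 and 672). Both were low in IMR-32 and high in NGP over IMR-32, at 3.71 and 2.87, each from 1 probe set. PIK3CD, a PI3 kinase subunit, was low in both lines (-3.50 and -3.93). CORT was at -2.35 and -1.87, AJAP1 at -1.90 and -0.49, RERE, a nuclear receptor corepressor, at -0.55 and 1.13 and E2F2 at 0.57 and 1.81. DFFA, the inhibitor of the apoptotic DNase, was at -0.67 and 0.40, ARID1A, a subunit of the BAF complex, at 0.11 and 1.35, and ID3 at -1.07 and 0.11. TNFRSF9 was high in NGP over IMR-32 (2.39), from median signals of 9.32 and 48.7, and EXTL1 was high in both lines over the pool from dim signals. MAD2L2 was the exception of a bright gene that was lower in NGP (-0.90), beside PIK3CD (-0.43) and the dim PRDM16 (-0.18). CENPS, CDK11A, CDK11B, SDHB and MIR34AHG were not analysed here.

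Genes of NuRD complexes, the type of remodeller to which CHD5 belongs, were mostly above the pool. In IMR-32 9 of 13 were above it and in NGP 10 of 13, where 41.6% and 42.3% of all genes were. CHD3 and CHD4, which are counted here, are also among the paralogues given below. Of the 13 measured, 1 was high in IMR-32 (MBD2, a reader of methylated DNA, 2.14), and in NGP 1 was high (GATAD2B, 1.97) and 1 was low (MTA2, -3.74, from a dim NGP signal of 11.5), which was also low in NGP over IMR-32 (-1.90). The medians were 0.38 in IMR-32 and 0.39 in NGP. CHD4, the broadly expressed remodeller of this complex, was at 0.42 and 0.78, and CHD3 at 0.82 and 0.25. HDAC1, the histone deacetylase gene that itself lies on distal 1p, was at -2.30 in IMR-32 and -1.28 in NGP, while HDAC2, elsewhere, was at 1.22 and 0.59. RBBP4, also on distal 1p, was at 0.26 and 1.20. Among 13 measured paralogues of the 10 genes, 1 was called, KIF1A, the neuronal kinesin, which was high in NGP (2.70) and at 0.89 in IMR-32. KIF1C was at -2.19 and -2.32, RUNX2 at -2.21 and -1.66 from dim signals, UBE4A at -0.44 and -0.75 and CAMTA2 at -0.57 and -0.28. The other paralogues listed were not analysed here.

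Of 10 measured genes of death receptor signalling, 2 were low in IMR-32 and 4 in NGP, with medians of -1.57 and -2.50, and 4 were low in NGP over IMR-32, with a median of -1.17. Of all genes 7% were low in each comparison, and the medians over all genes were -0.23, -0.22 and 0.02. TNFRSF1A, the first TNF receptor, was at -3.40 in IMR-32 and -5.48 in NGP, from signals of 119, 28.1 and 1256 in IMR-32, NGP and the pool. CASP8, the initiator caspase, was at -2.73 and -4.71, TRADD, the adaptor of TNFRSF25, at -1.96 and -4.04, and TNFRSF10A, a TRAIL receptor, at -3.30 and -4.07. Their median signals in NGP were dim, at 5.23, 11.7 and 31.6, so the size of these NGP ratios is uncertain. In IMR-32 the probe sets of TRADD ranged from -2.41 to 0.85. TNFRSF10B, the other TRAIL receptor, was level with the pool in IMR-32 (-0.04) and below it in NGP (-2.56), and it was low in NGP over IMR-32 (-2.51, median signals 687 in IMR-32 and 120 in NGP). TNFSF15, the ligand of TNFRSF25, was at -1.39 and -1.25, and FADD at -0.84 and -1.08. TNFRSF21 (-0.42 and 0.25) did not follow, and RIPK1 and TRAF2 were not analysed here.

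The genes around the other members showed few calls. Of the 4 receptors of the EGFR family, which ERRFI1 inhibits, ERBB2 was low in both lines (-4.22 and -4.56). EGFR was at -1.21 and 0.06, ERBB3 at -1.29 and -2.21 and ERBB4 at 1.55 and 0.60. The median signals of all 4 were dim in both lines, and that of ERBB4 was dim in the pool as well. Of 7 U-box ligases and partners of UBE4B, MDM2, which is amplified in NGP in the study, was high in NGP (2.40), STUB1 was at -1.64 and -1.28, and UBE4A, PRPF19 and VCP lay between -0.75 and -0.11 in both lines. IGFBP2, which MIIP binds, was high in NGP (2.67, signals 2765 in IMR-32, 15084 in NGP and 2365 in the pool) and at 0.23 in IMR-32. CDC20, another partner of MIIP and a gene of distal 1p, was at -1.24 and -0.31. Of 4 measured partners and regulators of KIF1B none was called, with DHX9, a helicase on 1q, at 1.37 and 1.25. Of 5 RUNX cofactors TLE4 was high in NGP (2.49), and CBFB was at -0.16 and -0.62. Of 8 measured genes listed as targets of the p53 family, and not of TP73 alone, none was called. CDKN1A was at -0.56 and -1.71 and PMAIP1 at 1.26 and 0.49. BBC3 and FDXR were not analysed here.

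The pool differed from both lines in the cell types it held, which bears on every ratio over it. The epithelial genes KRT8, KRT18, KRT19, EPCAM and CDH1 were all low in both lines, with medians of -7.45 and -7.80, and with pool signals from 3542 to 28088. Of 8 measured sympathoadrenal genes, 4 were high in IMR-32 and 7 in NGP. PHOX2A, a factor that defines this lineage, was at 3.26 and 3.86, and ISL1 at 2.12 and 3.23. TH and DBH, the enzymes of catecholamine synthesis, were near or below the pool in IMR-32 (-1.40 and -0.33) and high in NGP (4.01 and 2.06). Of 5 mesenchymal genes 2 were low in IMR-32 and 1 in NGP, of 5 haematopoietic genes 1 was low in each, and of 4 melanocytic genes 1, PMEL, was high in NGP. DCT was not analysed here. The part of the pool's composition in the low ratios of ERRFI1, TNFRSF25, RUNX3 and CASZ1 was not tested, whereas NGP over IMR-32 does not use the pool.

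The pattern of a gene over the 3 samples was compared by its Euclidean distance in the plane of the ratios of both lines over the pool, among 14692 genes with a signal at or above an array median. Nearest to KIF1B were BDNF (distance 0.02), OGFOD2 (0.07) and LINC01267 (0.09). Nearest to CHD5 were ZNF225-AS1 (0.05), RAMP2-AS1 (0.05) and CTH (0.14), and nearest to TNFRSF25 were RAB42 (0.09), C6orf132 (0.12) and PIERCE1 (0.18). Of these, RAB42 lies on distal 1p. With 3 arrays many genes share a pattern, and the likeness is given as a description.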

How the data were processed

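RNA from IMR-32, NGP and a pool of 16 cancer cell lines (polyA) was hybridized to 1 Affymetrix U133 Plus 2.0 array each. The authors deposited intensities as MAS5 signals, computed in Bioconductor with affy (version not given in the sources used here). No signal was at or below 0. After 62 control probe sets were left out, 41091 named 1 gene, 1801 several and 11721 none, and 41037 of the first were matched to RefSeq gene IDs (GRCh38.p14), which gave current symbols and gene order. Log2 ratios carry no pseudocount. Cut-offs were the top and bottom 7% of genes, after the study's methods. No p-value was computed with 1 array per sample, and the number of arrays limits the precision. The calculation of ratios and calls was run on simulated data with shifts of known size. That run checks the calculation and says nothing about the precision of the values given here. All 10 members were named, with the genes beside them, the called and the most changed genes of the lists, and the 3 genes nearest in pattern to each of the 3 members that differed most between the lines. Members and lists were chosen with earlier results of these data known. Some genes of the lists were named for their role after their values were seen. The 10 alternatives are given in the closing section. Python 3.11.15, numpy 2.4.6, pandas 2.3.3 and matplotlib 3.10.9 were used.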

Additional observations from a re-analysis of the deposited data

Results flagged for a closer look

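In MIIP every probe set was below the pool in IMR-32 and above it in NGP, with a log2 ratio of NGP over IMR-32 of 1.63. The same held for UBE4B, at 1.34. These 2 were picked out because the lines moved in opposite directions against the pool. For UBE4B the IMR-32 side was small, at -0.35 against a median of -0.23 over all genes. It was -0.12 with median-centred ratios, and probe set 215533_s_at (-0.16) was above that median. Each line is a single array, and the difference was not tested.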

How the results depend on the processing

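No sign of a called value changed under the 10 alternatives. The distal 1p median of IMR-32 over the pool was -0.58 with median-centred ratios, -0.62 with quantile-normalized arrays, -0.57 with 32 added to the signals and -0.90 with dim probe sets left out. That of NGP over the pool was -0.11, -0.20 and -0.23 with centring, quantile normalization and 32 added. That of NGP over IMR-32 was 0.46 with quantile-normalized arrays, 0.35 with 32 added, 0.63 with dim probe sets left out and 0.60 with the brightest probe set. The members' median of NGP over the pool was -0.97 with dim probe sets left out, and that of NGP over IMR-32 was -0.28 with the mean over probe sets. In IMR-32, where 0 members were within the bottom 7%, 1 was with quantile-normalized arrays, with 32 added and at 10%. In NGP, where 1 was, 2 were with 32 added and at 10%, and 0 without probe sets ending in _s_at or _x_at. For NGP over IMR-32, where 2 were, 0 were with 32 added, 3 at 10%, and 1 with dim probe sets left out, without _s_at and _x_at probe sets, at 5% and with the 7% taken among probe sets. The causes were not tested. Single arrays limit every value, and dim signals those of CHD5, TP73, RUNX3, TNFRSF25 and CASZ1. No paired analysis was possible because each sample has 1 array.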
